A study of Mus musculus with 2 samples.

Results

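The 10 genes described here encode matrix glycoproteins and small proteoglycans: Fn1, Mgp, Sparc, Sparcl1, Eln, Fbln1, Fbn1, Dcn, Bgn and Lum. They were chosen by name, are 10 of the 15526 genes in the table, and all 10 were detected. Their levels were followed across 1344 mouse lung cells grouped by lineage markers, with 3 settings in view: mesenchymal cells high in Acta2 or in Inmt, endothelial cells, and macrophages that carry Prg4 and Alox15. The cells came from p16-FDR mice on the C57BL/6 background, aged 20 to 22 months. In these mice an FLP recombinase and a diphtheria toxin receptor fused to the fluorescent protein mCherry report on p16, the cell cycle inhibitor encoded by Cdkn2a. All cells were sorted as mCherry-positive from the lung, in 2 samples, and no mCherry-negative cells or young animals were analysed here. Each cell was profiled by droplet-based 3' RNA sequencing (10x Genomics), which counts unique molecular identifiers (UMIs), tags that mark single captured RNA molecules.

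Fibronectin, the product of Fn1, is a large adhesive glycoprotein that cells bind through integrins and assemble into fibrils. Elastic fibres, which let the lung recoil, are built from elastin (Eln) laid on microfibrils of fibrillin-1 (Fbn1), and fibulin-1 (Fbln1) binds elastin and basement membranes. Decorin (Dcn), biglycan (Bgn) and lumican (Lum) are small leucine-rich proteoglycans that bind collagen fibrils. Sparc and its relative Sparcl1 are collagen-binding glycoproteins that modulate the contact of cells with matrix, and Mgp is an inhibitor of calcification that is abundant in lung. Fibroblasts, smooth muscle cells and myofibroblasts are the textbook sources of most of these proteins.

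The genes lie on 8 mouse chromosomes, with positions from the GENCODE annotation of GRCm38. Dcn (chromosome 10, bases 97479609 to 97518143) and Lum (97565128 to 97572703) are neighbours on the plus strand, with 46984 bases between them. Bgn lies on chromosome X (73483602 to 73495933) and Fbln1 on chromosome 15 (85205949 to 85286535), both on the plus strand. The remaining 6 genes are on the minus strand: Fn1 on chromosome 1 (71585520 to 71653200), Fbn1 on chromosome 2 (125300594 to 125507993), Mgp on chromosome 6 (136872435 to 136875823) and Sparc on chromosome 11 (55394500 to 55423183). Eln (134702593 to 134747323) and Sparcl1 (104079111 to 104113733) share chromosome 5. Upstream sequence in the RefSeq table of GRCm38.p6 was matched for 4 of the 10 genes. The 250 bases before the start are shown for Bgn and Fbln1. In the comparison of Acta2-high with Inmt-high cells given below, Bgn was detected in all cells of both groups, and Fbln1 had the lowest ratio of the 10. The Bgn window is chrX:73483351-73483600 and the Fbln1 window chr15:85205699-85205948, both written 5′ to 3′ on the plus strand, with capitals marking each GC box (GGGCGG on either strand).
Bgn: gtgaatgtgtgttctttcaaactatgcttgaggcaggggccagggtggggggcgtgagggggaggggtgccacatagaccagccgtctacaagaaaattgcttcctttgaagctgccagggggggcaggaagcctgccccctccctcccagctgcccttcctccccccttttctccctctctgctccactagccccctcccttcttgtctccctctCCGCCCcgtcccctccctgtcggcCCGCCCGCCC
Fbln1: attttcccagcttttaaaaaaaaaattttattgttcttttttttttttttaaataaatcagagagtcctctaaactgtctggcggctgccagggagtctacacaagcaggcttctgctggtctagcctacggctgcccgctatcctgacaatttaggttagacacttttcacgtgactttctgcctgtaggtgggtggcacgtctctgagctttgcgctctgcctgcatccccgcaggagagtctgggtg
The Bgn window held 3 GC boxes, whose first bases lay 34, 10 and 6 bases before the start, the last 2 overlapping. A GC box occurred in 32.7% of the 32851 mouse windows of this length in the table. The Fbln1 window held no GC box and no TATAAA (12.4% of all windows), CCAAT (33.8%), TGANTCA (6.75%) or CArG box (1.47%), searched on both strands. A second Fbln1 entry, chr15:85205758-85206007, begins within the gene as annotated and is not printed. It held 1 GC box, 11 bases before its start, and none of the other motifs. These are letter matches in these windows only.

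Cells came from 2 numbered libraries that could not be tied to the sample titles, so they were pooled as 1 sample and no test between samples was possible. Library 1 gave 1145 cells and library 2 gave 199, with medians of 5631 and 6716 UMIs per cell and no shared barcodes. A rate is the number of UMIs of a gene per 10000 UMIs of the group, with a 95% exact Poisson interval in parentheses. A gene was counted as higher or lower in a comparison when its rates differed by at least 2-fold and at least 20 UMIs fell in both groups together. All intervals cover counting error only. They say nothing of differences between mice, and they are too narrow where 1 cell holds many of the UMIs. Levels are compared between cells and never between genes.

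Mesenchymal cells held most of the UMIs of 9 of the 10 genes. Their marker genes put 231 cells in 2 clusters, of which 208 in 7 sub-clusters (M1 to M7) were described further. The other 23 were left out of the sub-cluster description, because 14 were led by secretoglobin genes (M8) and the other 9 (M9) all carried markers of more than 1 lineage. Of 24 groups of cells, 9 of the 10 genes had their highest rate in a mesenchymal group, and the exception was Fn1. The 208 cells held 99.8% of Lum UMIs, 99% of Dcn, 98.1% of Fbln1, 97.6% of Mgp, 96.1% of Fbn1 and 94.2% of Bgn. Eln followed with 88.5%, Sparcl1 with 84.2% and Sparc with 64.7%, since endothelial-like cells held 6.75% of Eln, 11.7% of Sparcl1 and 27.2% of Sparc UMIs. Fn1 had 11.8% of its UMIs in these mesenchymal cells and 82.6% in the Prg4 and Alox15 macrophages. Fbln1 and Lum were not detected in any of the 1113 cells outside the mesenchymal clusters, an upper limit of 0.27% for the share of those cells with a UMI.

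**Figure D1:**
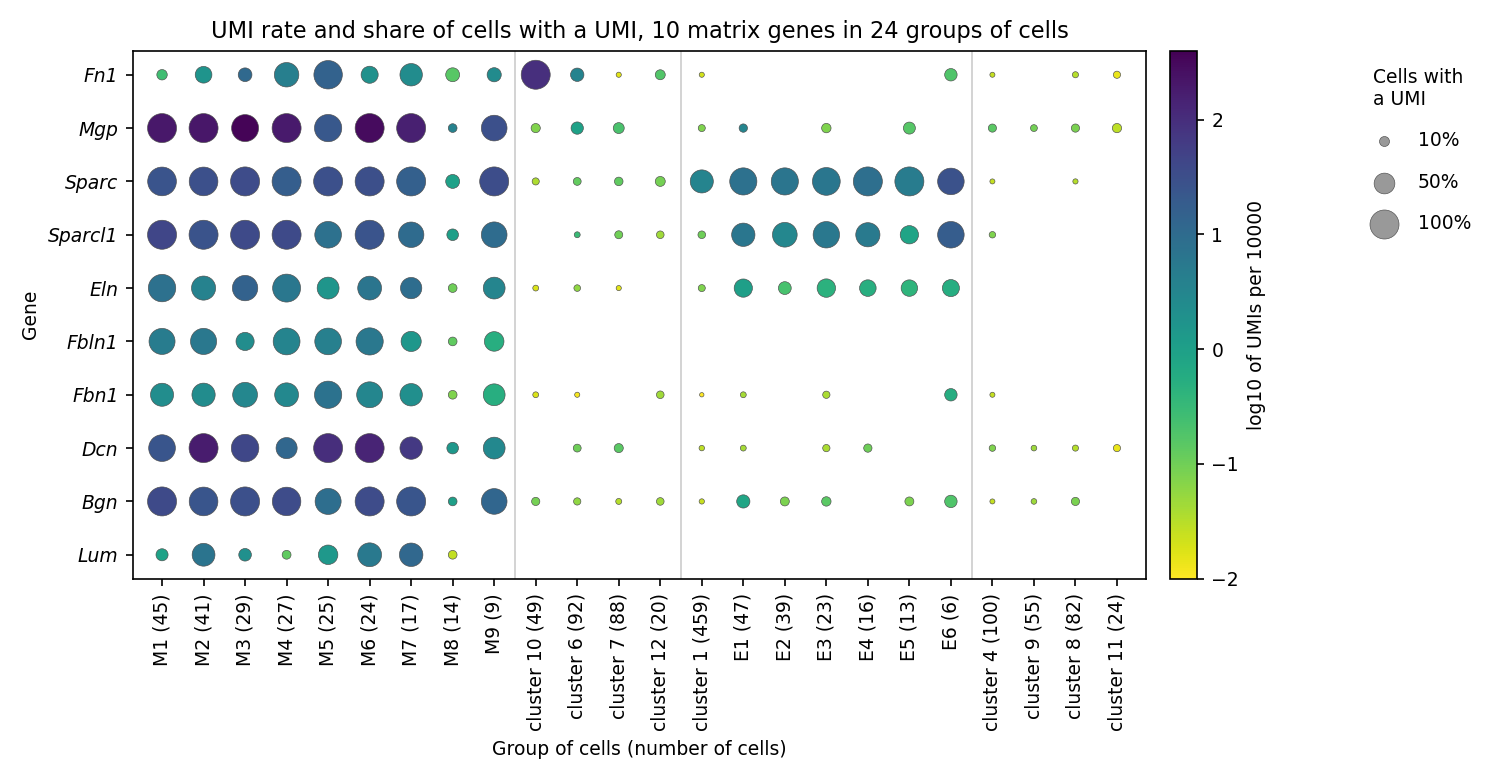
UMI rate (colour, log10 of UMIs per 10000) and share of cells with a UMI (dot area) of the 10 genes in 24 groups of cells, with the number of cells in parentheses and no dot where no UMI was found. M1 to M7 are mesenchymal, M8 (led by secretoglobin genes) and M9 (cells with markers of several lineages) come from the same clusters, clusters 10, 6, 7 and 12 macrophage-like and cluster 1 with E1 to E6 endothelial-like, and the last 4 are T-cell-like, B-cell-like and other clusters. Most genes are concentrated in the mesenchymal columns, Sparc, Sparcl1 and Eln extend into the endothelial-like ones, and Fn1 peaks in cluster 10 at 96.5 UMIs per 10000.

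Within the mesenchymal clusters, a cell was called Acta2-high or Inmt-high when it had at least 10 UMIs of that gene and more of it than of the other. Acta2 encodes smooth muscle actin, and Inmt, a methyltransferase, marks alveolar fibroblasts in mouse lung. The rule gave 12 Acta2-high and 118 Inmt-high cells and left 101 in neither. The 12 held 2084 of the 2184 Acta2 UMIs in these clusters (95.4%). Their Acta2 counts began at 11 and 20 UMIs, and the highest count outside was 9, while 6 Inmt-high cells sat at the minimum of 10 and 32 cells had 5 to 9 Inmt UMIs. The Acta2-high label held against other contractile markers: Myh11 was found in 10 and Des in 11 of the 12 cells. Of the 12, 8 lay in M7, 2 in M3 and 2 in M9, and 3 Inmt-high cells lay in M8 or M9. Median depth was 9854.5 UMIs in Acta2-high cells and 7330.5 in Inmt-high cells. Library 2 gave none of the Acta2-high and 2 of the Inmt-high cells.

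Of the 10 matrix genes 4 were at least 2-fold lower in Acta2-high than in Inmt-high cells (Mgp, Sparcl1, Fbln1 and Dcn), none was 2-fold higher and 6 were neither. Among all 6349 genes with enough UMIs, 22.5% were lower and 10.5% higher by the same rule. The median log2 ratio was -0.73 over the 10 genes and 0.0252 over all genes. Markers of other cell types also differed between the groups: 9 of 10 endothelial markers had a UMI in Acta2-high cells and 10 of 10 in Inmt-high cells. Their summed rate was 11.6 UMIs per 10000 in Acta2-high cells (range over cells 0 to 52.6) and 5.13 in Inmt-high cells (0 to 107). In Inmt-high cells fibroblast markers summed to 62.4 and adventitial fibroblast markers to 56.3 (8 of 8 found). The Inmt-high label therefore does not stand for alveolar fibroblasts alone. Adventitial fibroblast markers summed to 5.79 in Acta2-high cells. Alveolar duct myofibroblast markers summed to 50.8 in Acta2-high and 3.87 in Inmt-high cells. Club cell markers summed to 3.18 UMIs per 10000 in Acta2-high cells (0 to 20.9; Scgb3a2, Cyp2f2 and Wfdc2 at 0) and 77.3 in Inmt-high cells (0 to 2355; all 5 found). Their part in the differences was not tested, except that 2 Acta2-high and 6 Inmt-high cells with markers of more than 1 lineage were left out as an alternative, in which the same 4 genes stayed lower (ratios 0.299 for Mgp, 0.348 for Sparcl1, 0.0577 for Fbln1 and 0.255 for Dcn). The calls depended on the per-cell rule. With no minimum of Acta2 or Inmt UMIs, the ratios were 0.868 for Mgp, 0.402 for Sparcl1, 0.226 for Fbln1, 0.443 for Dcn and 2.39 for Eln, so Mgp lost its call and Eln passed 2-fold. Sub-cluster M7 over M1 to M4 and M6 gave 0.648 for Mgp and 0.861 for Dcn, neither past 2-fold, and 3.89 for Lum. Between the whole clusters, cluster 5 (34 of 92 cells with an Acta2 UMI) over cluster 3, the ratio was 1.69 for Mgp, 1.65 for Sparcl1, 1.71 for Bgn, 3.76 for Eln and 1.02 for Fbln1, and Acta2-high cells over sub-cluster M4 gave 1.11 for Dcn.

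Mgp, the calcification inhibitor, had 56 UMIs per 10000 in Acta2-high cells (51.6–60.6) and 202 in Inmt-high cells (199–205), 3.61-fold lower in the Acta2-high cells (3.33–3.93). Single Acta2-high cells ran from 0 through a median of 32.2 to 246 UMIs per 10000, and Inmt-high cells from 2.15 through 173 to 860. The ranges overlapped, but 10 of 12 Acta2-high cells had Mgp, against all 118 Inmt-high cells. Sparcl1 showed a like difference, with 10.1 UMIs per 10000 in Acta2-high cells (8.28–12.2) and 35 in Inmt-high cells (33.9–36.3), or 3.47-fold lower (2.87–4.25). Its per-cell medians were 9.15 in Acta2-high cells (0 to 56.1) and 35 in Inmt-high cells (0 to 123), so that detection was common in both groups, in 11 of 12 Acta2-high and 117 of 118 Inmt-high cells, and the level differed.

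Its relative Sparc did not follow Sparcl1. Sparc had 26.2 UMIs per 10000 in Acta2-high cells (23.3–29.5) and 23.5 in Inmt-high cells (22.5–24.5), a ratio of 1.12 (0.984–1.27). Of the 281 Sparc UMIs in Acta2-high cells 151 came from 1 cell, which also carried endothelial markers. Without the top cell of each group the ratio was 0.64, and without cells of more than 1 lineage it was 0.624. The same cell held 29 of the 41 Fn1 UMIs in the Acta2-high group. Fn1 had 3.83 UMIs per 10000 in Acta2-high cells (2.75–5.2) and 2.05 in Inmt-high cells (1.77–2.36), a ratio of 1.87 that became 0.744 without the top cells and 0.804 without cells of more than 1 lineage. A difference in Fn1 between these groups therefore rested on that cell.

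The elastic fibre genes split. Eln, which encodes elastin itself, had 11.4 UMIs per 10000 in Acta2-high cells (9.46–13.6) and 6.13 in Inmt-high cells (5.64–6.65), a ratio of 1.86 (1.52–2.27) just under the 2-fold mark. It was found in 8 of 12 Acta2-high cells (median 6.28, highest 32.5 UMIs per 10000) and in 102 of 118 Inmt-high cells (median 4.58, highest 45.9), with wide overlap. The 4 Acta2-high cells without an Eln UMI were those with the fewest Acta2 UMIs. Fbln1 went the other way, with 0.374 UMIs per 10000 in Acta2-high cells (0.102–0.957) and 4.19 in Inmt-high cells (3.79–4.63), 11.2-fold lower (4.35–41.4). No Acta2-high cell had more than 1 Fbln1 UMI and 4 of the 12 had 1, against 95 of 118 Inmt-high cells with a UMI. Fbn1, the microfibril gene, had 1.4 UMIs per 10000 in Acta2-high cells and 2.62 in Inmt-high cells (ratio 0.536, 0.295–0.901), and 0.194 without the top cell of each group, since 1 Acta2-high cell held 10 of its 15 UMIs.

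The small proteoglycans also parted. Bgn was present in all 12 Acta2-high and all 118 Inmt-high cells. Its rates were 23.5 UMIs per 10000 in Acta2-high cells (20.7–26.6) and 31 in Inmt-high cells (29.9–32.1), a ratio of 0.76 (0.665–0.864), with per-cell medians of 16.7 (3.83 to 38.7) in Acta2-high cells and 30.1 (1.69 to 77.5) in Inmt-high cells. Dcn, by contrast, was found in 3 of 12 Acta2-high cells and in 101 of 118 Inmt-high cells. Its rate was 13.2 UMIs per 10000 in Acta2-high cells (11.1–15.5) and 64.8 in Inmt-high cells (63.1–66.4), 4.92-fold lower (4.16–5.85). Of the 141 Dcn UMIs in Acta2-high cells, 139 came from 1 cell, and without the top cell of each group the ratio was 0.0032. Lum was sparse in both, in 2 of 12 Acta2-high cells and 40 of 118 Inmt-high cells, with 1.49 UMIs per 10000 in Acta2-high cells and 2.34 in Inmt-high cells (ratio 0.639, 0.359–1.06).

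**Figure D2:**
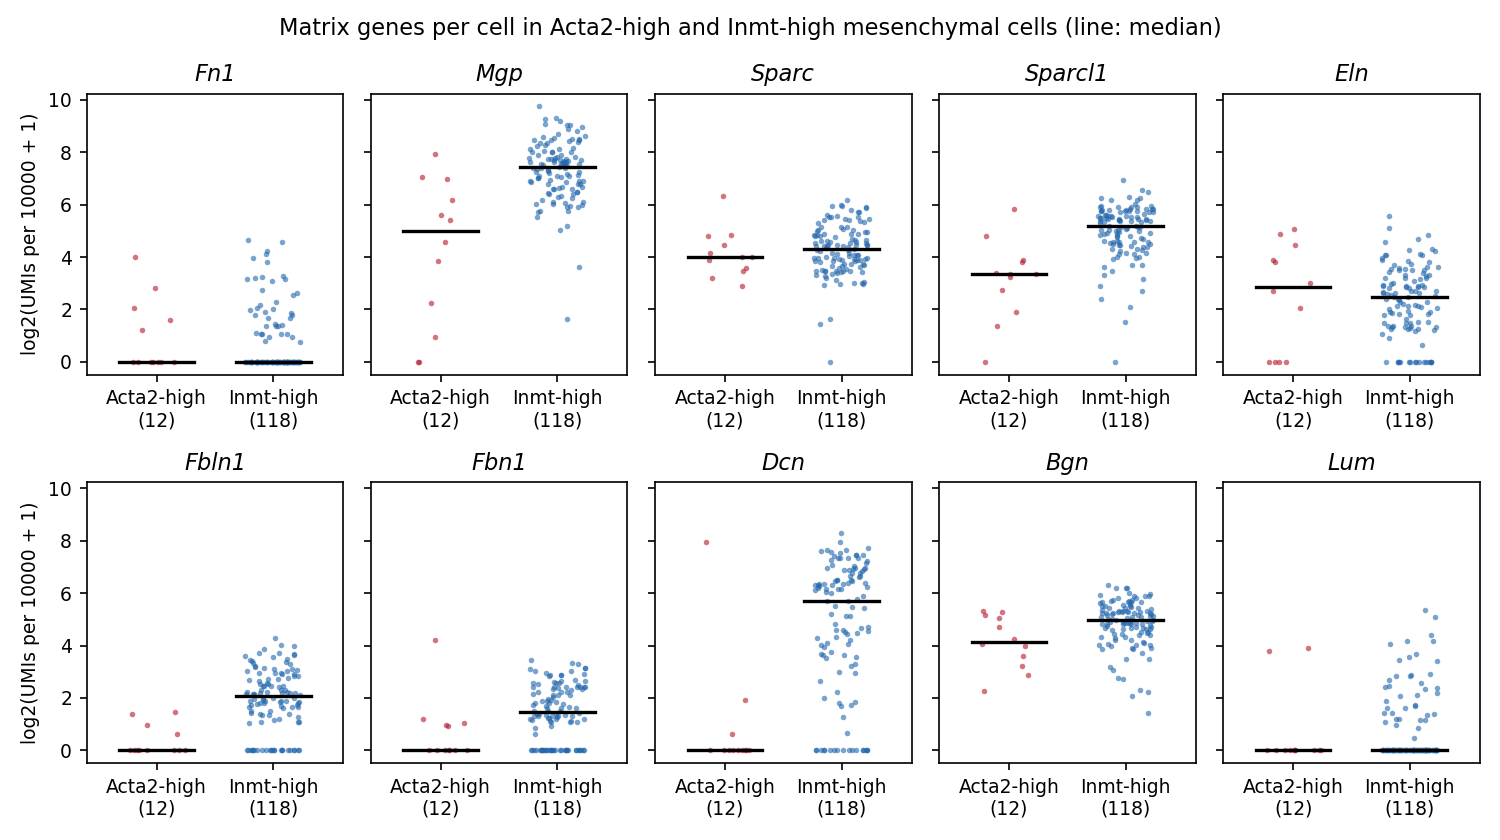
Level of the 10 genes in each of 12 Acta2-high (left) and 118 Inmt-high (right) mesenchymal cells, as log2(UMIs per 10000 + 1); each point is a cell and the line is the median. Mgp, Sparcl1, Fbln1 and Dcn sit lower in the Acta2-high cells, with a Dcn outlier at 139 UMIs, while Sparc, Eln and Bgn overlap widely.

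The wider matrix list, 74 genes of the same families of which 71 were in the table, gave 59 with enough UMIs in this comparison. Of these 12 were higher in Acta2-high cells, 23 were lower and 24 were neither, with a median log2 ratio of -0.421. The largest higher value was that of Thbs1, which encodes the adhesive glycoprotein thrombospondin-1, with 25.5 UMIs per 10000 in Acta2-high and 1.13 in Inmt-high cells (22.5-fold). Ltbp2, a microfibril-associated protein, had 2.34 in Acta2-high and 0.181 in Inmt-high cells. Aspn, the proteoglycan asporin, had 12.8 in Acta2-high and 1.06 in Inmt-high cells, which set it apart from the other 6 small leucine-rich proteoglycans of the list, of which 4, Omd among them, were counted as lower and none as higher. Itga8, an integrin subunit that binds fibronectin, had 8.41 in Acta2-high and 1.83 in Inmt-high cells, and Postn (periostin) had 1.03 in Acta2-high and 0.203 in Inmt-high cells. All 3 fibronectin receptor genes past 2-fold (Itga8, Itgb1 and Sdc4, of 5 with enough UMIs) were higher in Acta2-high cells, where Fn1 itself was not. Among the lower genes, Smoc2, of the Sparc family, had no UMI in Acta2-high cells and 3.01 UMIs per 10000 in Inmt-high cells, at least 10.7-fold lower against a limit of 3 counts. Fmod also had no UMI in Acta2-high cells, at least 2.58-fold lower. Omd, Spock2 and Spp1, counted as lower because they too had none, have bounds of 1.03, 0.935 and 1.4, under 2-fold. All 47 Spp1 UMIs of Inmt-high cells came from 1 cell. All 12 Cilp UMIs of Acta2-high cells, counted as higher, likewise came from 1 cell. Efemp1, a fibulin, had 0.187 UMIs per 10000 in Acta2-high cells and 8.51 in Inmt-high cells, and the fibulin Fbln2 had 0.0934 in Acta2-high cells and 1.5 in Inmt-high cells. The laminin genes Lamb1 and Lama2 each had 0.187 in Acta2-high cells, where Inmt-high cells had 3.35 for Lamb1 and 2.78 for Lama2. Of 16 elastic fibre genes, 6 were lower, 1 was higher and 9 were neither.

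The 7 mesenchymal sub-clusters differed in which matrix gene stood out, and these levels did not shape the grouping, since the 10 genes were left out of the genes used for it. M1 (45 cells) was led by Notum and Cyp2e1, M2 (41) by Apod, Mmp3 and Ccl11, M3 (29) by Serpine2 and Ltbp2 and M4 (27) by Cdo1 and Limch1. M5 (25) was led by Smpd3 and Aldh1a2, M6 (24) by Hmox1, Mt1 and Il6 and M7 (17) by Myoc and Myh11. Library 2 gave 4 of the 208 cells.

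Dcn differed in pooled rate across all 7 sub-clusters, of which M7 held unlike cells (described below), and its intervals cover counting error only. Its rate was 176 UMIs per 10000 in M2 (171–181), 138 in M6, 99.7 in M5, 67.8 in M7, 42.2 in M3, 23.9 in M1 and 11.9 in M4 (10.5–13.4), and no neighbours in this order had overlapping intervals. Lum, its neighbour on chromosome 10, was highest in M7 at 11.7 (9.84–13.9), followed by M2 at 6.68 and M6 at 5.39, whose intervals overlapped, with 0.131 in M4. Both genes were thus lowest in M4, but they did not share a highest sub-cluster. Fibroblast markers summed to 106 UMIs per 10000 in M4 and 59.4 in M2, and adventitial fibroblast markers to 22.1 in M4 and 89.1 in M2. The adventitial sums were 114 in M5, 83.8 in M6, 42.4 in M1 and in M3, and 13.6 in M7. This order was neither that of Dcn nor that of Lum. The part of these markers in the Dcn and Lum levels was not tested. Bgn was flatter, between 24.1 in M7 and 37.1 in M1, apart from M5 with 8.94.

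M7 itself was mixed. It held 8 Acta2-high cells and 9 others, and the Lum signal lay in the others. Lum had 2.25 UMIs per 10000 in the 8 Acta2-high cells (2 of 8 cells) and 27.4 in the 9 others (22.7–32.8; 9 of 9 cells). Dcn had 19.6 UMIs per 10000 in the 8 Acta2-high cells, of which 1 carried it, and 147 in the others, all 9 of which did, and Mgp had 71.4 in the 8 and 298 in the 9. Myoc, the gene leading M7, divided like Lum, with 1.13 UMIs per 10000 in the 8 Acta2-high cells (1 of 8) and 31.3 in the others (7 of 9). Eln lay the other way, with 12.1 UMIs per 10000 in the Acta2-high cells of M7 (9.68–15) and 5.1 in the others (3.2–7.73). This split was made after the values of M7 were seen.

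M5 stood apart in most of the 10 genes. It had the highest Fbn1 rate, 7.34 UMIs per 10000 (6.25–8.57), against 2.1 to 3.13 in the other 6 sub-clusters, and the highest mesenchymal Fn1 rate, 14.7 (13.2–16.4), with Fn1 in 24 of its 25 cells. It was also lowest in Mgp, at 22.8 against 157 to 360 elsewhere, in Sparcl1 at 7.94 (interval overlapping that of M7), in Eln at 1.6 and in Bgn at 8.94. Mesothelial markers, which could mark another cell type, were all found in M5, 6 of 6, with a summed rate of 16.8 UMIs per 10000 and a range over cells of 0 to 79.6. Their median over cells was 0, and Msln was in 3 and Upk3b in 4 of the 25 cells. Their part in these levels was not tested.

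Elastin was highest in M3, with 14.7 UMIs per 10000 (13–16.5) and 10.7 without its top cell, followed by M7 at 9.46 and M1 at 8.05. M3 also led in Mgp with 360 (351–368), although 1 cell held 1942 Mgp UMIs and the rate without it was 289, under the 292 of M6. Its Fn1 rate of 11.2 came from 1 cell with 197 of 218 UMIs, and was 1.19 without it. Sparc varied less, between 16.1 in M7 and 35.8 in M3. Sparcl1 ran from 7.94 in M5 and 10.1 in M7 to 43.1 in M1, a wider range than that of Sparc. Fbln1 was between 1.49 in M7 and 5.77 in M6, and the intervals of M6, M2, M1, M5 and M4 overlapped from each to the next.

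**Figure D3:**
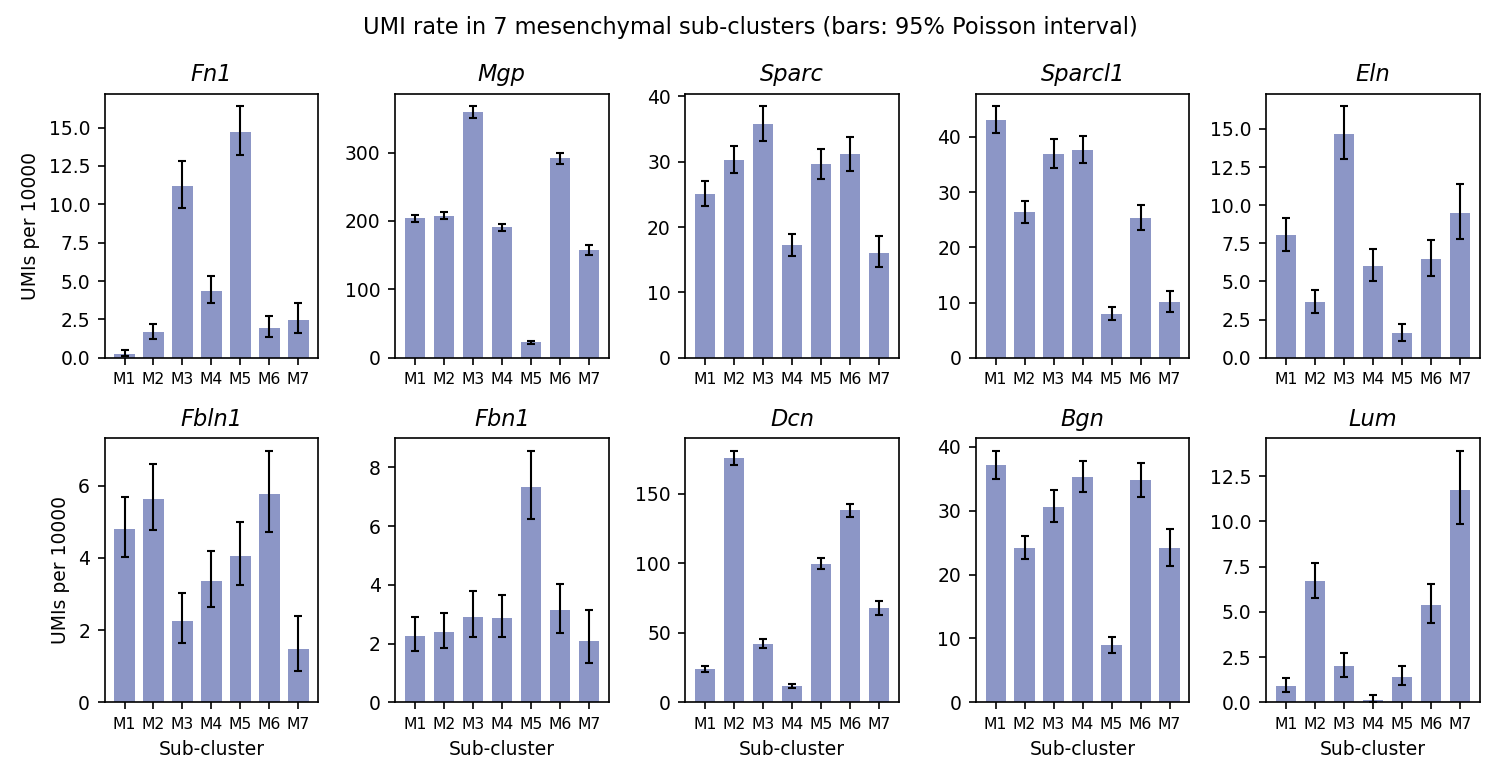
UMIs per 10000 of the 10 genes in sub-clusters M1 to M7; bars are rates and error bars are 95% exact Poisson intervals, and each panel has its own axis. M5 is highest in Fn1 and Fbn1 and lowest in Mgp, Sparcl1, Eln and Bgn, while Dcn falls from 176 in M2 to 11.9 in M4.

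Endothelial-like cells, 603 in all, expressed a small set of these genes. The 237 T-cell-like and B-cell-like cells, called lymphocytes below, served as a gauge of free RNA. Against them 4 of the 5 genes with enough UMIs were at least 2-fold higher and none lower, where 35.8% of 10351 genes were higher and 14.7% lower. Sparc had 4.75 UMIs per 10000 in endothelial-like cells and 0.0248 in the lymphocytes, a ratio of 191 (65.4–929). It was found in 69.2% of endothelial-like cells (52.1% when each cell was thinned to 2500 UMIs) and in 0.844% of lymphocytes (0.51% when thinned), at median depths of 5242 UMIs in endothelial-like cells and 4199 in lymphocytes. Sparcl1 had 1.67 in endothelial-like cells and 0.0248 in lymphocytes, in 20.1% of endothelial-like cells and 1.27% of lymphocytes. Eln had 0.216 in endothelial-like cells and no UMI in lymphocytes, at least 6.91-fold higher, in 10.4% of endothelial-like cells. Mgp was past 2-fold in rate (0.286 in endothelial-like cells, 0.108 in lymphocytes) but was in 4.15% of endothelial-like cells and 5.49% of lymphocytes, a share no higher than this background. Bgn was not past 2-fold (0.0954 in endothelial-like cells, 0.0579 in lymphocytes). It was in 3.65% of endothelial-like cells and 2.95% of lymphocytes. Fn1 (0.0168 in endothelial-like cells, 0.0248 in lymphocytes) and Dcn (0.0281 in endothelial-like cells, 0.0496 in lymphocytes) had under 20 UMIs over both groups.

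Within the endothelial-like cells, sub-cluster E1 was set against 550 cells of cluster 1 and E2 to E5, called the other endothelial cells here, with the 6 cells of E6 left out. E1 held 47 cells with Vwf, a larger-vessel marker, among its leading genes at 12.7 UMIs per 10000. The 7 larger-vessel markers summed to 27.2 UMIs per 10000 in E1 and 3.14 in the other endothelial cells, and 6 general capillary markers summed to 77.4 in E1 and 14.1 in the others. The others were mostly cells of cluster 1 (459 of 550), and aerocyte markers summed to 3.02 in E1 and 73.3 in them. Of 5 genes with enough UMIs, 4 were higher in the Vwf-high cells (Mgp, Sparcl1, Eln and Bgn) and none lower, against 10.2% of 9310 genes higher and 15.7% lower. Sparcl1 had 6.12 UMIs per 10000 in Vwf-high cells (5.17–7.19) and 1.06 in the other endothelial cells (0.947–1.17), 5.79-fold (4.75–7.04). It was found in 63.8% of Vwf-high and 15.6% of other endothelial cells, and after thinning in 53.4% of Vwf-high and 9.3% of other endothelial cells. The Sparcl1 ratio was 9.13 as a mean of per-cell shares and 59.2 against cluster 1 alone. Eln had 1.03 in Vwf-high cells (0.669–1.53) and 0.15 in the other endothelial cells (0.111–0.198), 6.89-fold (4.08–11.4), in 38.3% of Vwf-high and 7.82% of other endothelial cells. Bgn had 0.785 in Vwf-high cells and 0.0428 in the other endothelial cells, 18.3-fold (8.71–39.5). It was found in 9 of 47 Vwf-high and 12 of 550 other endothelial cells. The other endothelial cells were no higher in Bgn than lymphocytes (0.0579), so this fold is taken over a background level. The Bgn ratio was 8.75 to 10.8 under the other 3 clustering settings. For Mgp the higher rate, 3.27 in Vwf-high and 0.0704 in the other endothelial cells, came from 70 UMIs in 1 of 3 Vwf-high cells with the gene, and was 0.379 without that cell. The Mgp ratio was 1.43 with 30 components and turned to 0.761 at a doubled clustering resolution.

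Sparc lay just under the mark, with 8.06 UMIs per 10000 in Vwf-high cells (6.97–9.27) and 4.12 in the other endothelial cells (3.9–4.35), 1.96-fold (1.68–2.28), in 87.2% of Vwf-high and 67.5% of other endothelial cells. Sparc also differed between the libraries: in the other endothelial cells it had 3.24 UMIs per 10000 in library 1 and 6.03 in library 2, and within library 1 the ratio of Vwf-high to other endothelial cells was 2.54. It also passed 2-fold with all variable genes kept (2.7), as a mean of per-cell shares (2.15) and against cluster 1 alone (2.43). Library 2 gave 7 of the 47 Vwf-high cells, too few for a value of its own. Of 10 contractile markers 3 had a UMI in Vwf-high cells and 7 in the others, with summed rates of 1.9 in Vwf-high cells (0 to 6.72 over cells) and 1.85 in the others (0 to 12), and Acta2, Myh11 and Des were at 0 in Vwf-high cells. Of 9 fibroblast markers 1 had a UMI in Vwf-high cells and 5 in the others, with summed rates of 0.455 (0 to 8.49) in Vwf-high cells and 0.0826 (0 to 3.86) in the others, and Inmt and Pdgfra were at 0 in Vwf-high cells. The part of these markers in the differences was not tested. Of the wider list 24 genes had enough UMIs, and 10 were higher in Vwf-high cells, 7 lower and 7 neither. Vwf itself defines the group. The other large values were those of Itga5, the fibronectin receptor subunit (0.537 in Vwf-high, 0.052 in the other endothelial cells), and Ltbp4 (0.579 in Vwf-high, 0.0643 in the other endothelial cells). Mmrn2, an endothelial glycoprotein, had 1.45 in Vwf-high and 0.187 in the other endothelial cells, and Hmcn1 had 11.1 in Vwf-high and 1.49 in the other endothelial cells. The lowest ratios were those of Tnxb, with no UMI in Vwf-high and 1.71 UMIs per 10000 in the other endothelial cells, Itgb5 (0.0413 in Vwf-high, 2.97 in the other endothelial cells) and Lamc1 (0.413 in Vwf-high, 1.09 in the other endothelial cells). Spp1 and Tgfbi also had no UMI in Vwf-high cells, where their rates in the other endothelial cells, 0.0949 and 0.0673, were too low to set a bound of 2-fold.

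The other endothelial cells were themselves divided. Cluster 1, 459 cells with the aerocyte gene Car4 at 34.9 UMIs per 10000, had 0.103 Sparcl1 UMIs per 10000, in 5.01% of its cells. The other sub-clusters had 2.9 in E2, 5.82 in E3, 5.32 in E4 and 0.819 in E5, of which E3 and E4 overlapped the interval of E1. Sparc spanned less, from 3.31 in cluster 1 through 4.92 in E5 to 8.79 in E4, above the 8.06 of E1, and Eln had 0.0785 in cluster 1 against 0.219 to 0.511 in E2 to E5. The Eln intervals of E3 (0.238–0.803), E4 (0.166–1.19) and E5 (0.133–0.956) overlapped that of E1 (0.669–1.53), and that of E2 (0.0944–0.431) did not. E6, 6 cells in which Prox1 was found in 2, had the highest endothelial rates of Sparc (28, 23.7–32.8) and Sparcl1 (18.6, 15.1–22.6), each in 5 of 6 cells. It joined neither side of the comparison, and 6 cells give little ground for its level.

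**Figure D4:**
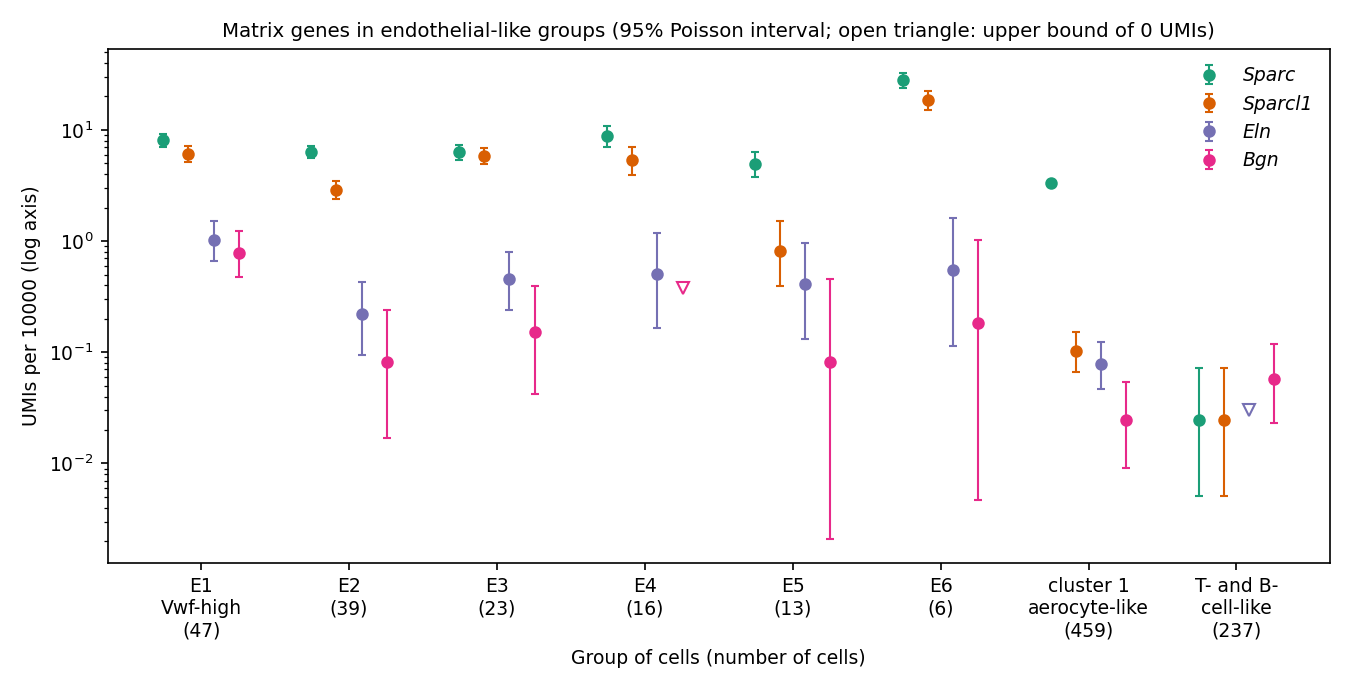
UMIs per 10000 (log axis) of Sparc, Sparcl1, Eln and Bgn in endothelial-like groups and in T-cell-like and B-cell-like cells; points are rates, bars 95% exact Poisson intervals, and open triangles the upper bound where no UMI was found. Sparcl1 and Eln are lower in cluster 1 (0.103 and 0.0785) than in E1 (6.12 and 1.03), while Sparc stays above 3 UMIs per 10000 in every endothelial-like group.

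Fn1 stood apart from the other 9 genes in the macrophages. Cluster 10 held 49 macrophage-like cells with Prg4 at 84 UMIs per 10000 (48 of 49 cells) and Alox15 at 16.4 (46 of 49), genes of large macrophages of the serous cavities in mouse, and both were at 0.0118 in the other 200 macrophage-like cells. The label held against general macrophage genes: Csf1r had 3.2 UMIs per 10000 in cluster 10 and 6.8 in the others, Lyz2 had 577 in cluster 10 and 144 in the others, and Adgre1 had 6.7 in cluster 10 and 2.64 in the others. Fn1 had 96.5 UMIs per 10000 in cluster 10 (94–99.2) and 1.8 in the other macrophage-like cells (1.6–2.01), 53.6-fold higher (47.8–60.4). All 49 cells had Fn1, with 15 to 325 UMIs each (median 100), or 25.7 to 239 per 10000 with a median of 94.3. Among the other macrophage-like cells it was found in 21 of 200, and 3 of these reached the lowest rate of cluster 10. After thinning to 2500 UMIs the shares were 100% in cluster 10 and 7.94% in the others, at median depths of 10595 UMIs in cluster 10 and 7574.5 in the others, and lymphocytes had 1.27% before thinning.

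The remaining macrophage-like Fn1 was uneven. Cluster 6 (92 cells) held 301 of the 306 UMIs, in 18 cells, of which 1 held 119. Cluster 7 (88 cells) had 1 UMI and cluster 12 (20 cells) 4. Without the top cell of each group the ratio of cluster 10 to the others was 84.2. In cluster 10 a UMI was found for 1 of 9 fibroblast markers, the 6 mesothelial and 6 pericyte markers were all at 0, and Col1a2 had 1 UMI over the 49 cells. Endothelial markers were found there, 10 of 10, with a summed rate of 2.56 UMIs per 10000 in cluster 10 (0 to 47.9 over cells) and 1.91 in the others (0 to 101). All 5 lymphatic endothelial markers were found too, with 9.75 in cluster 10 (0 to 287, median 0) and 0.0235 in the others (0 to 1.95). Their part in the Fn1 level was not tested; without cells of more than 1 lineage the Fn1 ratio was 50.6. Library 2 gave 1 cell of cluster 10, which had 113 Fn1 UMIs (66.7 per 10000), within the range of the library 1 cells. Across all cells outside cluster 10, 9 reached its lowest Fn1 rate, 6 of them mesenchymal.

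The other 9 genes were low or absent in cluster 10. Of the 10, 4 had enough UMIs for this comparison. Fn1 was higher, and Mgp (0.0731 in cluster 10, 0.547 in the others) and Sparc (0.0365 in cluster 10, 0.124 in the others) were lower. Sparcl1 was lower too (0 in cluster 10, 0.194 in the others, at least 2.72-fold). The Sparc call rested on 2 UMIs in cluster 10 and 21 in the others, and its ratio interval (0.0336–1.21) includes 1. All 33 Sparcl1 UMIs of the others lay in 8 of 200 cells. Over all 7991 genes 6.57% were higher and 21.7% lower. In cluster 10 the levels of Mgp, Sparc and Sparcl1 sat near those of lymphocytes, 0.108 for Mgp and 0.0248 for Sparc and for Sparcl1. The other macrophage-like cells had higher rates than lymphocytes in all of these. Mgp was in 8.16% of cluster 10 cells, 13% of the others and 5.49% of lymphocytes. From the wider list 18 genes had enough UMIs, of which 9 were higher in cluster 10, 3 lower and 6 neither, with a median log2 ratio of 1.02 against -0.223 over all genes. Thbs1 had 20 UMIs per 10000 in cluster 10 and 0.429 in the others, and Ecm1 had 41.6 in cluster 10 and 1.59 in the others. Emilin1 had 0.676 in cluster 10 and 0.047 in the others. Ltbp1, which binds latent TGF-beta to the matrix, had 4.6 in cluster 10 and no UMI in the others, at least 211-fold higher. It was found in 45 of the 49 cells. Mmrn1, a lymphatic endothelial marker, had 39 UMIs in cluster 10, all in 1 cell, and no UMI in the others. All 4 elastic fibre genes with enough UMIs (Ltbp1, Ltbp4, Emilin1 and Emilin2) were higher in rate, but all 14 Ltbp4 UMIs of cluster 10 came from 1 cell. Of the fibronectin receptor genes, Itgb1 was higher (10.2 in cluster 10, 2.72 in the others), while Itgb5 (0.0183 in cluster 10, 0.635 in the others) and Sdc4 (0.493 in cluster 10, 2.76 in the others) were lower.

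**Figure D5:**
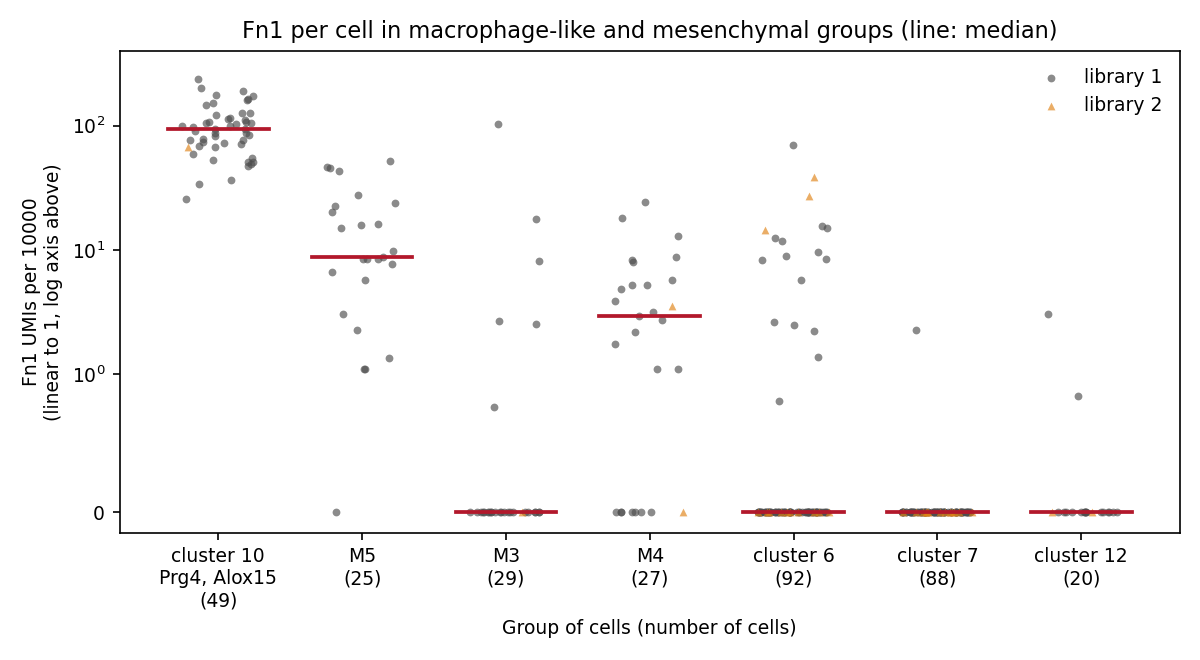
Fn1 UMIs per 10000 in each cell (linear to 1, log axis above) of cluster 10, sub-clusters M5, M3 and M4 and macrophage-like clusters 6, 7 and 12, with the number of cells in parentheses; circles are library 1, triangles library 2 and lines medians. All 49 cells of cluster 10 lie between 25.7 and 239, while the medians of clusters 6, 7 and 12 are 0.

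Since the sort was on a p16 reporter, the genes were also set against Cdkn2a, the gene for p16, in endothelial-like cells. A Cdkn2a UMI was found in 328 of them, with a median depth of 5746.5 UMIs, and not in 275, with a median of 4633. Sparcl1 had 1.05 UMIs per 10000 in cells with Cdkn2a and 2.54 in cells without, a ratio of 0.415. The cells with and without Cdkn2a differed in makeup: Cdkn2a was found in 60.6% of cluster 1, where Sparcl1 was low, and in 2.13% of the Vwf-high E1. Standardised over sub-cluster, library and depth in 531 cells, Sparcl1 had 0.864 with Cdkn2a and 0.92 without (ratio 0.939, 0.792–1.11). Intervals of standardised ratios are those of the ratios before standardisation, scaled to the standardised value. Sparc had 4.51 with Cdkn2a and 5.1 without (0.884, 0.803–0.975), and when standardised 3.32 with Cdkn2a and 3.28 without (1.01, 0.918–1.11). Eln had 0.162 with Cdkn2a and 0.293 without (0.553). When standardised it had 0.155 with Cdkn2a and 0.117 without (1.33, 0.822–2.13), an interval that includes 1. Bgn had 0.0477 with Cdkn2a and 0.164 without (0.292). When standardised it had 0.0637 with Cdkn2a and 0.0428 without (1.49, 0.636–3.23). For Eln and Bgn the lower rate with Cdkn2a was thus not seen after standardisation, and no direction could be told. Mgp had 0.0429 with Cdkn2a and 0.634 without (0.0677). When standardised it had 0.0549 with Cdkn2a and 0.181 without (0.304, 0.135–0.603). The Vwf-high cell described above as the source of the Mgp rate in that group had no Cdkn2a UMI. It held most of the Mgp UMIs of the cells without Cdkn2a, and its part in the standardised ratio was not tested. Without library 1 the standardised ratio was 0.407 for Sparcl1 and 2.49 for Eln. Mesenchymal cells of M1 to M7, where the matrix genes were highest, had few Cdkn2a UMIs, in 13 of 208 cells, too few for this comparison.

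Across the 24 groups the genes varied in how alike their levels were, given here as Pearson's r of log2(UMIs per 10000 + 0.1) among 8854 genes with at least 100 UMIs. The points are groups of cells from the same 2 libraries, of unequal size and depth, so r is a description. Mgp and Bgn were alike (0.98), as were Dcn and Fbln1 (0.97), Sparc and Sparcl1 (0.94) and the neighbours Dcn and Lum (0.92). These pairs were not set apart, since all pairs among the 9 genes other than Fn1 had r between 0.57 and 0.98. Dcn had a higher r with Mgp and Bgn (0.94 each) and with Fbn1 (0.93) than with Lum. Fn1 had r between 0.26 and 0.60 with each of the other 9. The genes most like Fn1 were Tgfb2 (0.86), Plxdc2 (0.83) and Gata6 (0.79), and Gata6 encodes a transcription factor of serous-cavity macrophages in mouse. Closest to Eln were Fhl1, Efemp2 and Cyr61 (0.96 to 0.95), and Efemp2 encodes a fibulin needed to assemble elastic fibres. Sparc was most like Timp3, Serpinh1 and Nfib (0.97 to 0.96), and Sparcl1 like Fmo2 and Osmr (0.96 and 0.95). For Mgp, Mfap4 and Mmp2 followed Bgn (0.97 each), and Bgn was also like Mmp2 (0.98). Dcn was most like Prrx1, Medag and Rarres2 (0.98 each), Fbln1 like C1s1, Rarres2 and Abca8a (at least 0.99), Fbn1 like Sgcd, Gpx8 and Gas1 (0.98 to 0.97) and Lum like Pi15, Scara3 and Ptgfr (0.95 to 0.93).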

How the data were processed

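Cells were profiled with the 10x Genomics v3 3' kit and processed with Cell Ranger 3.0.2 on mm10, per the submitters' processing notes; their cell and gene filters are not stated. The deposited values are natural log values, ln(UMIs per 10000 of the cell + 1), as the authors' table itself shows. Whole UMIs were recovered from them (largest deviation 1.78e-10). Cells were clustered with scanpy 1.11.5 and igraph 0.11.9 (2000 variable genes without the 10 genes and the wider list, values limited to 10, 20 components, 15 neighbours, Leiden resolution 0.5, and 1 for sub-clusters), which gave 12 clusters. Grouping Acta2 and Inmt cells by cluster had been planned; a per-cell minimum of 10 UMIs replaced it after the data were seen, because cluster 5 held Acta2 mostly in 12 of 92 cells. No doublets were removed: 40 cells (2.98%) carried at least 3 markers of each of several lineages. Poisson and binomial (Clopper-Pearson) intervals are exact at 95%, from scipy 1.17.1. For shares, a count of 0 allows 3 counts. Where a group had a count of 0, the bound on a fold is the exact 95% limit of the ratio of rates. With 1 pooled sample no test was run, and whether replicates are separate animals is not stated per cell. Named genes of the wider list are up to 5 a direction past 2-fold. Members and lists were chosen with earlier results of these data known. A gene that the rule for likeness names is not reported here. Columns of cells not used: 0.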

Additional observations from a re-analysis of the deposited data

How the results depend on the processing

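Fn1 in cluster 10 over the other macrophage-like cells was 53.6-fold; it was 76.2-fold as a mean of per-cell shares, 84.2-fold without the top cells and 55.6-fold without library 2. For Acta2-high over Inmt-high cells, 665 genes were higher and 1428 lower. The counts were 4933 and 917 with no minimum of UMIs and 1 UMI added to each gene in each group. With that added UMI, genes with very few UMIs come out higher in the group with fewer total UMIs by construction. The counts were 127 and 293 with at least 100 UMIs, 290 and 489 against M4 alone, and 535 lower for cluster 5 over cluster 3. The minimum sets by construction how many genes enter, and the cause of the other shifts was not tested. For Vwf-high over other endothelial cells, 947 higher and 1466 lower genes became 4286 and 832 with no minimum and the same added UMI. With at least 100 UMIs they became 320 and 688. Without library 2 these counts were 671 and 1394 for the mesenchymal comparison and 797 and 1439 for the endothelial one, and 9 genes still peaked in a mesenchymal group. The standardised Sparc ratio with and without Cdkn2a was 1.01, against 0.884 without standardisation and 0.951 to 1.26 with each library left out. Among genes past 2-fold, directions reversed for Mgp in Vwf-high cells at a doubled resolution (0.761), for Mgp, Sparcl1 and Fbln1 in cluster 5 over cluster 3 (1.69, 1.65 and 1.02) and for Dcn in Acta2-high cells over M4 (1.11); the cause was not tested. Of 193 values of single genes under alternatives, 132 stayed within their interval, 56 left it and these 5 reversed a call. Some of the 132 could not differ, since a minimum of 100 UMIs leaves the ratio of a gene unchanged by construction. The doubled resolution and the setting with all variable genes kept also returned the main ratios of Acta2-high over Inmt-high cells. The tally is therefore no measure of robustness. In all 20 values lay on the other side of a ratio of 1, the other 15 of genes not called: Fn1 (1.87; 0.701 to 0.879), Sparc (1.12; 0.586 to 0.914), Bgn (0.76; 1.71) and Lum (0.639; 1.4 and 3.89) in Acta2-high cells, and Sparcl1 (0.939; 1.09), Eln (1.33; 0.553) and Bgn (1.49; 0.292) with Cdkn2a. Leaving out library 1 was not run where library 2 held too few cells. No analysis paired by sample was possible because the libraries could not be tied to the samples and the table was treated as 1 sample. Comparisons within a library do not need that tie, and the values without library 2 are those within library 1. Where both groups had fewer than 20 UMIs, no difference could be told at this depth.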
